A study of Mus musculus with 7 samples.

Results

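*Meioc*, *Ythdc2* and *Rbm46* encode the 3 proteins of a cytoplasmic complex of meiotic germ cells. Their transcripts were described here in testes enriched for preleptotene spermatocytes, the cells about to enter meiosis, from wild-type and *Meioc*-null pups. They are 3 of the 21928 genes, and 5 of the 43020 transcripts, to which the deposited tables were matched; the genes were chosen by symbol, and each table row that maps to them was taken by its Ensembl identifier. Both groups were of strain C57BL/6N, and the null pups carried the tm1.1Dpc allele of *Meioc*; which exons that allele lacks is not given in the sources used here. To synchronize spermatogenesis, all pups of both groups were given daily WIN18446, which blocks the synthesis of retinoic acid, on P2 to P8 (0.1 mg per g of body weight) and then a single dose of retinoic acid on P9 (0.0125 mg per g), and testes were taken 6.75 days after it. Each of the 4 wild-type and 3 *Meioc*-null libraries was made from 1.5 testes of 1 pup, without selection for poly(A) tails.

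MEIOC is a germ cell protein that binds the RNA helicase YTHDC2, and cells that lack either protein do not complete meiotic prophase. YTHDC2 unwinds RNA and carries a YTH domain, the fold that reads methylated adenosine in mRNA, and it binds the exonuclease XRN1. RBM46 is a germ cell protein with RNA recognition motifs that contacts the CCR4-NOT deadenylase, which shortens poly(A) tails before an mRNA is degraded.

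The libraries held between 12537852 and 20552702 estimated counts. Of the 13630 genes tested by the quasi-likelihood method of edgeR, with p-values adjusted by Benjamini-Hochberg, 1513 (11.1%) passed an adjusted p under 0.05, with 7.77% of genes higher and 3.33% lower in wild type. That number moved with the fit, to 2331 (17.1%) by DESeq2, 109 with a replicate block, and 129 (without null replicate 3) to 2177 (without wild-type replicate 1) when 1 library was left out. Germ cell markers were lower in sum in the null libraries. Their summed level over 10 genes, all detected, was 2742 to 3324 CPM in wild type and 1779 to 2116 CPM in the null. CPM are counts scaled to library size and then by TMM, a factor between libraries. Of the 10 genes, 5 were called higher in wild type, among them *Dazl*, an RNA-binding protein of germ cells (log2 fold change 0.58, SE 0.093). The summed levels of the Sertoli, Leydig, myoid, macrophage and endothelial lists overlapped between the groups, although 1 Sertoli marker (*Gata4*) and 1 myoid marker (*Des*) were called lower in wild type, and no defining marker was at 0. The 10 germ cell markers moved by unlike amounts, with log2 fold changes from 0.17 to 1.27. In whole testes, fewer germ cells, less RNA per germ cell and changes in single markers cannot be told apart. The part of this germ cell shift in the results on the 3 genes was not tested, and a rescaled fit is given later.

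Only *Rbm46* was represented by several isoforms, and their coding ends are printed because their coding sequences differ there. *Rbm46* lies on the minus strand of GRCm38 chromosome 3 from 82837228 to 82876483, and all 3 of its annotated protein-coding transcripts were in the tables. They share 3 coding exons and then diverge, so that Rbm46-201 codes for 533 residues, Rbm46-202 for 470 and Rbm46-203 for 485. The lines below run 5′ to 3′ on the minus strand and start with the last 30 bases of the last coding exon they share in lower case. Capitals mark the bases of the last coding exon, through the stop codon, which are coding in that isoform alone, at chr3:82837233-82837432 (200 bases), chr3:82838449-82838459 (11 bases) and chr3:82842478-82842533 (56 bases).
Rbm46-201: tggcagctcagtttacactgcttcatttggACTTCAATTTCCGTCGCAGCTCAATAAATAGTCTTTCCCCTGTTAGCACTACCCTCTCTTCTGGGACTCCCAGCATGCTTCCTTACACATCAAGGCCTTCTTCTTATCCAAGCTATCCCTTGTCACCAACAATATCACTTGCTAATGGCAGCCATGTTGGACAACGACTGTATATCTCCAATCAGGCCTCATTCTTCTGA
Rbm46-202: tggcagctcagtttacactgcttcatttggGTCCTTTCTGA
Rbm46-203: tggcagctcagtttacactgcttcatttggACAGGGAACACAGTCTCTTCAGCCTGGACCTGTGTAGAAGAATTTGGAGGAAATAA
The coding end of Rbm46-201 lies in its own last exon. Rbm46-202 and Rbm46-203 share most of a last exon, which is noncoding in Rbm46-203. The last shared coding exon ends 12578 bases from the 5′ end of the gene. All 3 coding ends start far beyond it, at 39051 bases in Rbm46-201, 38024 in Rbm46-202 and 33950 in Rbm46-203. Rbm46-201 also has a noncoding first exon of 176 bases, absent from Rbm46-202 and Rbm46-203. Of the 31-base words in each transcript, compared over the deposited transcripts, 21.5% occur only in Rbm46-201, 1.58% only in Rbm46-202 and 4.17% only in Rbm46-203. The division of reads among the isoforms therefore rested on few bases for the last pair, and it is the authors' estimate.

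*Meioc* and *Ythdc2* were each read through 1 transcript. Meioc-201 has 8 exons and 965 codons in a gene on the plus strand of GRCm38 chromosome 11 from 102663716 to 102682237. Among the deposited transcripts, which include no other of *Meioc*, all of its 31-base words were unique to it. Ythdc2-201 has 30 exons and 1445 codons in a gene on the plus strand of chromosome 18 from 44827746 to 44889724, and it shared 2 such words with a transcript of *Arih1*. Of the annotated transcripts, 2 of the 3 of *Meioc* and 3 of the 4 of *Ythdc2* were absent from the tables and from this word comparison. Which isoforms of these genes remain in the null could therefore not be read.

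*Meioc* transcripts remained in every null library. The wild-type libraries, replicates 1 to 4, held 466, 658, 662 and 718 CPM, and the null libraries, replicates 1 to 3, held 399, 298 and 412 CPM. Every wild-type library lay above every null library, but wild-type replicate 1 was nearer to the null libraries than to the other wild-type libraries. Means were 626 ± 110 CPM in wild type (SD, n = 4) and 370 ± 62.1 CPM in the null (SD, n = 3), so the null held 59.1% of the wild-type level by the fitted fold change. The log2 fold change was 0.76 (SE 0.16, 95% interval 0.40 to 1.11; adjusted p = 0.0207 by edgeR, Benjamini-Hochberg). In the null libraries these were 4135 to 7591 estimated counts, all on Meioc-201, the only *Meioc* transcript in the tables. The tables give 1 count per transcript and none per exon, so the remaining reads could not be placed on or off the deleted part. The lower level cannot check the labels, because *Ythdc2*, at 60.5% of wild type in the null, and the summed germ cell markers were also lower.

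*Ythdc2* was lower in the null by about the same amount as *Meioc*. Its wild-type libraries, in the same order, held 112, 163, 175 and 194 CPM, and its null libraries 106, 91.4 and 95.2 CPM. The groups did not overlap, although wild-type replicate 1 stood only a little above the highest null library. In TPM, the per-length unit, the corresponding gap was 30.9 against 30.6, and 4.93% of tested genes were without overlap and higher in wild type on that scale. Means were 161 ± 34.9 CPM in wild type (SD, n = 4) and 97.4 ± 7.44 CPM in the null (SD, n = 3), and the log2 fold change was 0.73 (SE 0.16, 95% interval 0.36 to 1.09; adjusted p = 0.0242, same edgeR test), which left 60.5% of the wild-type level in the null.

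*Rbm46* did not pass the test. The wild-type libraries held 105, 84.3, 74.5 and 70.9 CPM, and the null libraries 80.3, 79.1 and 87.5 CPM. The null libraries fell inside the wild-type range. Means were 83.7 ± 15.2 CPM in wild type (SD, n = 4) and 82.3 ± 4.54 CPM in the null (SD, n = 3), with a log2 fold change of 0.022 (SE 0.13, 95% interval -0.27 to 0.31; adjusted p = 0.927, same edgeR test). In TPM the null libraries, at 108 to 121, stood above wild-type replicates 2 to 4, at 80.3 to 95.9, and below replicate 1, at 134.

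**Figure D1:**
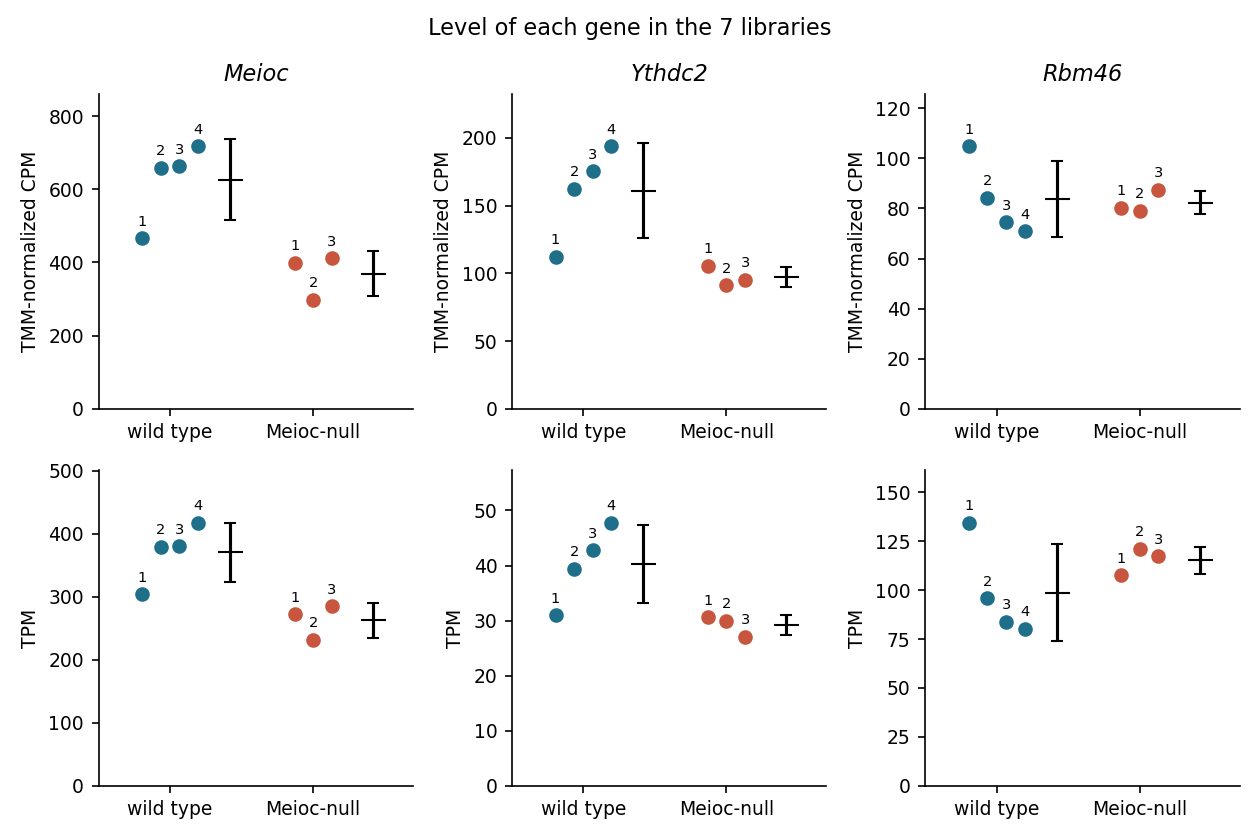
Levels of *Meioc*, *Ythdc2* and *Rbm46* in each library in TMM-normalized CPM (top) and TPM (bottom); points are libraries labelled with their replicate number, and the bar beside each group is the mean ± SD (n = 4 wild type, n = 3 *Meioc*-null). The groups do not overlap for *Meioc* and *Ythdc2*, whereas for *Rbm46* the null libraries, at 79.1 to 87.5 CPM, lie inside the wild-type range of 70.9 to 105 CPM.

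Thus 2 of the 3 genes were called higher in wild type, where 7.77% of all tested genes were, and the same 2 did not overlap in CPM, where 15.4% of tested genes did not overlap with wild type higher. The median log2 fold change of the 3 genes was 0.73 against -0.0065 over all tested genes. *Meioc* held rank 520 and *Ythdc2* rank 577 of 13630 genes by log2 fold change, so many genes differed by more. Wild-type replicate 1 was the lowest wild-type library for *Meioc* and *Ythdc2* and the highest for *Rbm46*, and it was also the shallowest wild-type library. Replicate 4, the deepest, was the reverse in all of these, and the part of depth in this order was not tested. The calls depended on which libraries were kept. Without wild-type replicate 1 the adjusted p was 0.0026 for *Meioc* and 0.0010 for *Ythdc2*, and without null replicate 1 it was 0.0284 and 0.0336 (edgeR). Leaving out any of wild-type replicates 2, 3 and 4 or null replicates 2 and 3 put that of both genes above the threshold (up to 0.0636 for *Meioc* and 0.0874 for *Ythdc2* by edgeR), with *Meioc* between 0.63 and 0.88 and *Ythdc2* between 0.61 and 0.86 on the log2 scale over all 7 omissions.

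**Figure D2:**
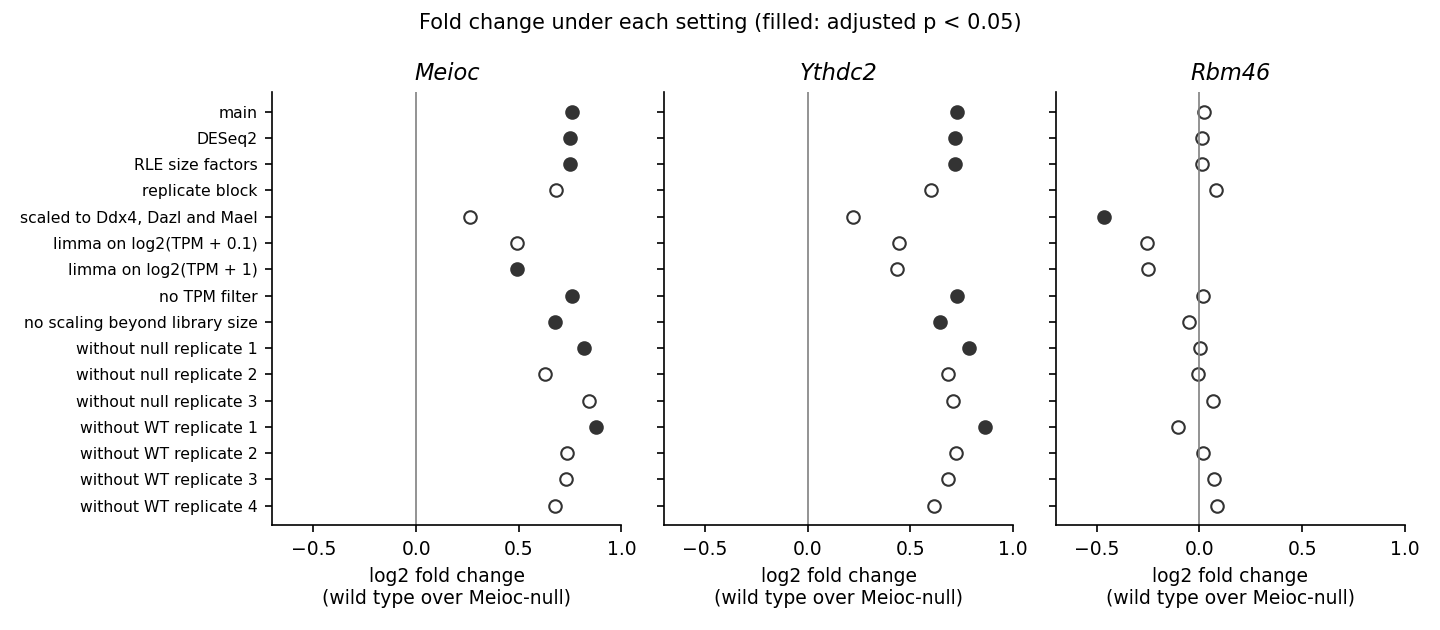
Log2 fold change (x axis, wild type over *Meioc*-null) of the 3 genes under each setting (rows); filled points have an adjusted p under 0.05. *Meioc* and *Ythdc2* are above 0 in every setting, from 0.26 and 0.22 up to 0.88 and 0.86, whereas *Rbm46* lies on both sides of 0, between -0.47 and 0.087.

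The fold changes depended on what the libraries were scaled to. When each library was scaled to its summed *Ddx4*, *Dazl* and *Mael* counts, a scaling chosen after the data were seen, the log2 fold change was 0.26 for *Meioc* (adjusted p = 0.0788 by edgeR) and 0.22 for *Ythdc2* (adjusted p = 0.187 by edgeR), and *Rbm46* was lower in wild type at -0.47 (adjusted p = 0.0200 by edgeR). The median of all tested genes was then -0.50, and 71.9% of genes were called, 2.05% higher and 69.8% lower in wild type. Relative to the median of all genes, the 3 genes stood at 0.77, 0.72 and 0.037, close to the 0.77, 0.73 and 0.028 of the TMM scaling. Most of the summed marker level was *Dazl*, at a mean of 1102 CPM in wild type against 216 for *Ddx4* and 202 for *Mael*. *Dazl* and *Mael* were themselves called higher in wild type, and *Ddx4* was not (log2 fold change 0.24, adjusted p = 0.0813 by edgeR). This scaling therefore takes the difference of the markers, mainly that of *Dazl*, out of every gene alike. Whether it corrects for germ cell content was not tested.

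Ratios between the 3 transcripts within a library do not depend on scaling between libraries. On the TPM scale *Meioc* was 8.74 to 9.83 times as abundant as *Ythdc2* in the wild-type libraries and 7.73 to 10.5 times in the null libraries. The log2 ratio of *Ythdc2* to *Meioc* was -3.21 ± 0.083 (SD, n = 4) in wild type and -3.17 ± 0.22 (SD, n = 3) in the null, and the 0.046 difference was smaller than either SD (two-sided exact permutation, all 35 arrangements, p = 0.686). For this pair the null libraries lay below, within and above the wild-type range. The ratio of *Rbm46* to *Meioc* was -1.93 ± 0.53 in wild type and -1.18 ± 0.22 in the null (exact permutation p = 0.171, 0.343 after adjustment over the 3 ratios), and that of *Rbm46* to *Ythdc2* was 1.28 ± 0.60 and 1.98 ± 0.15 (exact permutation p = 0.229, adjusted p = 0.343). For *Rbm46* to *Meioc* wild-type replicate 1 lay among the null libraries, and for *Rbm46* to *Ythdc2* it lay just above the highest of them, while replicates 2 to 4 lay below all null libraries in both. With 4 libraries against 3 this test cannot give a p below 0.0571. It could therefore not decide whether the response of *Rbm46* differed from those of *Meioc* and *Ythdc2*.

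**Figure D3:**
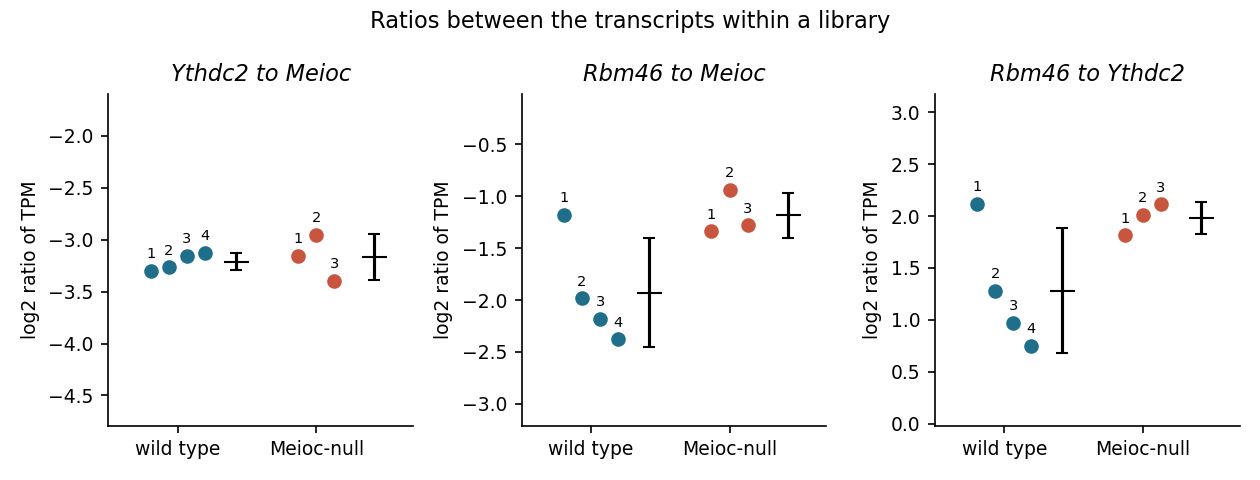
Log2 ratio of TPM for each pair of the 3 genes (y axis) in each library, with replicate numbers and mean ± SD (n = 4 wild type, n = 3 *Meioc*-null). The groups overlap in all 3 ratios, and in both ratios with *Rbm46* wild-type replicates 2 to 4 lie below the null libraries while replicate 1 is at their level.

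The order of the levels was the same in all 7 libraries. By TPM, *Meioc* was highest at 304 to 417 in wild type and 232 to 285 in the null, *Rbm46* came next at 80.3 to 134 and 108 to 121, and *Ythdc2* was lowest at 30.9 to 47.8 and 27.1 to 30.6. None of these ranges met between neighbours. Among the genes detected at any TPM in a library, a wider set than the tested genes, *Meioc* stood at the 96.8th to 98.6th percentile. *Ythdc2* stood at the 68.1st to 82.2nd. TPM divides by kallisto's effective length, which was 54.4% to 56.0% of the annotated length for Meioc-201 and 82.3% to 84.2% for Ythdc2-201. With annotated lengths in its place, *Meioc* was 5.84 to 6.54 times *Ythdc2* in wild type and 5.15 to 6.82 times in the null.

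Both main *Rbm46* isoforms remained in every null library, and their proportions overlapped with those in wild type. Rbm46-201 made up 41.7%, 42.8%, 40.4% and 43.9% of the *Rbm46* TPM in wild-type replicates 1 to 4 and 41.0%, 41.5% and 37.4% in null replicates 1 to 3. The groups overlapped, with 42.2 ± 1.48% against 40.0 ± 2.26% and a difference of 2.26 percentage points (two-sided exact permutation p = 0.229). Rbm46-203 made up nearly all of the rest, at 57.6 ± 1.44% and 60.0 ± 2.26%, and the difference was -2.43 points (exact permutation p = 0.171). Rbm46-202, whose own coding end is 11 bases long, was at 9.04 estimated counts (0.707% of the *Rbm46* TPM) in wild-type replicate 1 and at 0 in the 6 other libraries, where 3 counts would be 0.186% to 0.274% of the *Rbm46* counts; this covers counting error only. The test of transcript usage in edgeR, which asks whether a transcript moves apart from the rest of its gene, gave 0.070 for Rbm46-201 and -0.051 for Rbm46-203 on the log2 scale (adjusted p = 1.0 for both), where 0.271% of transcripts were called.

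**Figure D4:**
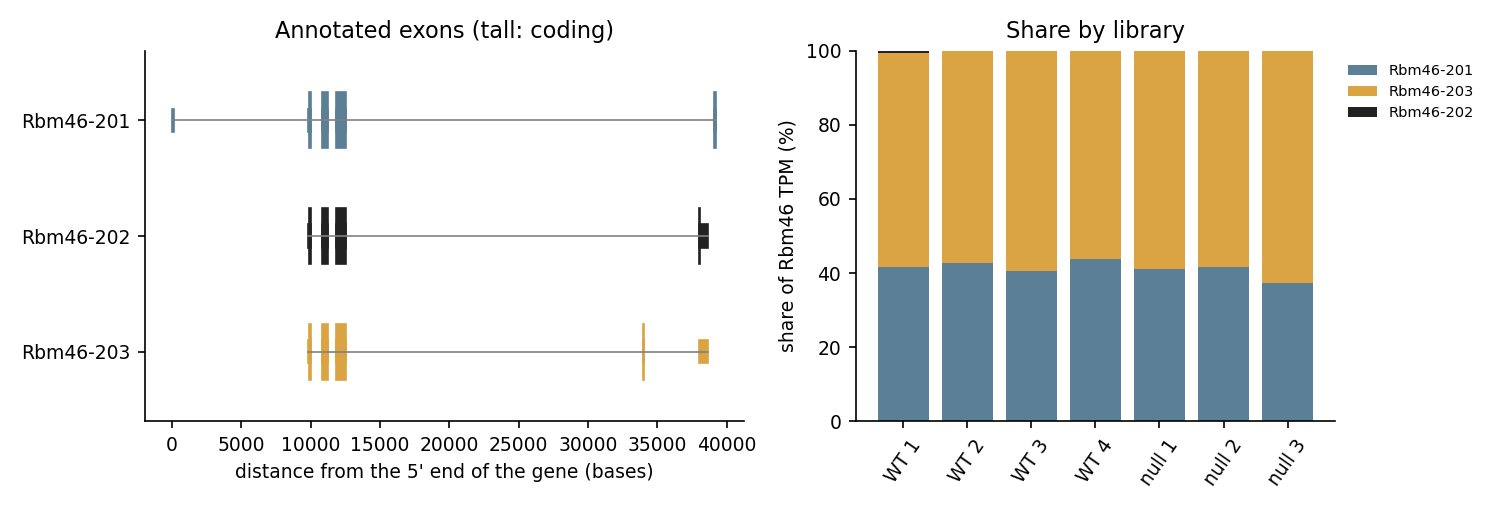
Left, exons of the 3 *Rbm46* transcripts by distance from the 5′ end of the gene (bases), with coding parts drawn tall; right, share of the *Rbm46* TPM (%) assigned to each transcript in each library. Rbm46-201 holds 37.4% to 43.9% and Rbm46-203 most of the rest in every library, and Rbm46-202 shows in wild-type replicate 1 alone, at 0.707%.

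Tested as single transcripts, none of the 4 that passed the filter was called by edgeR. Meioc-201 stood at 0.74 (adjusted p = 0.135) and Ythdc2-201 at 0.70 (adjusted p = 0.144), with Rbm46-201 at 0.070 and Rbm46-203 at -0.050. Over all transcripts 14 of 21920 (0.0639%) were called by this fit and 17.4% had an unadjusted p under 0.05, against 11.8% called by DESeq2, which called Meioc-201 and Ythdc2-201 with nearly the same fold changes.

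Transcripts of the decay machinery linked to the complex did not pass the test. The 13 genes were *Xrn1*, *Upf1* and 11 *Cnot* genes, named for CCR4-NOT, and not each of their proteins is known here to contact the complex. Of these genes, 0 were called by edgeR, where 11.1% of all tested genes were, or by DESeq2, where 17.1% were. An unadjusted edgeR p under 0.05 was found for 1 of them (*Xrn1*) and for 30.3% of all tested genes. The list had a median log2 fold change of 0.050. *Cnot1*, the scaffold of CCR4-NOT, had the highest value at 0.16 (SE 0.072, adjusted p = 0.170 by edgeR), and *Xrn1*, the exonuclease bound by YTHDC2, the lowest at -0.26 (SE 0.10, adjusted p = 0.126 by edgeR). The 13 log2 fold changes lay between these values, all below those of *Meioc* and *Ythdc2*. On the log2(TPM + 1) scale *Cnot7*, a catalytic deadenylase subunit, was called lower in wild type, where 1998 of all tested genes were called. The median log2 fold change of all tested genes on that scale was -0.23.

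Among 14 genes related to YTHDC2 or RBM46 by domain, 13 passed the filter. Of these, 1 was called by edgeR, where 11.1% of all tested genes were, and 3 by DESeq2 (*Syncrip*, *Dnd1* and *Ythdf2*), where 17.1% were. *A1cf*, at or under 3 counts in every library, did not pass. The gene called by edgeR was *Syncrip*, an RNA-binding protein with the same kind of recognition motifs as RBM46, at 310 ± 10.3 CPM in wild type (SD, n = 4) and 377 ± 13.4 CPM in the null (SD, n = 3), with a log2 fold change of -0.28 (SE 0.067, adjusted p = 0.0289 by edgeR). That call was lost with the replicate block (adjusted p = 0.228 by edgeR) and without any of wild-type replicates 2, 3 and 4 or null replicates 2 and 3 (0.0606 to 0.0983). *Ythdf2*, a cytoplasmic reader of methylated adenosine, had the highest value at 0.32 (adjusted p = 0.0781 by edgeR), and *Dnd1*, a germ cell RNA-binding protein, the lowest at -0.76 (adjusted p = 0.0571 by edgeR). The median over the list was -0.035. On the log2(TPM + 1) scale *Ythdf2* turned to -0.087, where the median of all tested genes was -0.23.

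**Figure D5:**
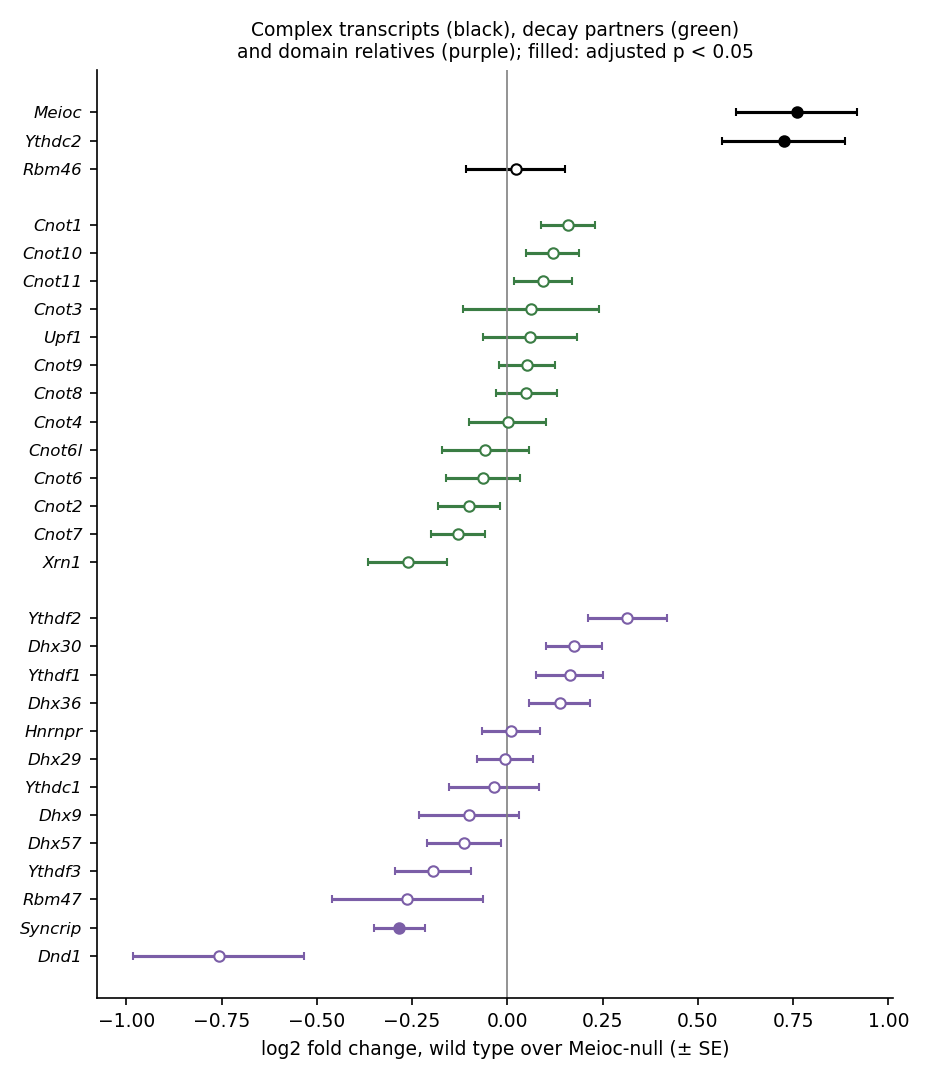
Log2 fold change, wild type over *Meioc*-null, with its SE for the 3 complex genes (black), the 13 decay genes (green) and the 13 tested domain relatives (purple); filled points have an adjusted p under 0.05 by edgeR. *Meioc* at 0.76 and *Ythdc2* at 0.73 lie to the right of all decay genes and relatives, and *Syncrip* at -0.28 is the filled point among the relatives.

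The genes whose level followed each of the 3 most closely over the 7 libraries were found among 10243 genes whose mean was 10 CPM or more, by the mean absolute difference of centred log2 CPM. For *Meioc* they were *Snx16*, *Rbmx2*, *Nasp*, *Cdc45* and *Rpgr*, at 0.050 to 0.061. For *Ythdc2* they were *Pole4*, *Cyld*, *Tfcp2l1*, *Rundc3b* and *Dgat1*, at 0.036 to 0.044. *Ythdc2* itself came 68th in likeness to *Meioc*, and *Meioc* 85th in likeness to *Ythdc2*, so the pair was close but not closest. For *Rbm46* they were *Ddhd2*, *Lypla1*, *Naa35*, *Odf2* and *Usp7*, at 0.036 to 0.053, and *Meioc* and *Ythdc2* came 9920th and 9927th of the 10243. These values describe profiles that share libraries and depth, and no test was made of them.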

How the data were processed

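Bulk RNA-seq of preleptotene-enriched testes was measured in 4 wild-type and 3 *Meioc*-null libraries, grouped by the genotype in their labels; the 7 are separate pups. The authors trimmed reads with cutadapt 1.8 and ran kallisto 0.44.0 on GENCODE Basic vM15 transcripts (mm10), and deposited 2 values per protein-coding transcript: an estimated count, not normalized between libraries, and a TPM, which keeps no depth. Kallisto divides reads that match several transcripts by estimation. The effective length in bases is also in the deposited tables and was used for the values per length. Here 43020 of 43139 transcripts were matched to GENCODE vM21 on GRCm38 by identifier; the 119 others held 0.247% to 0.282% of a library's counts and were left out. Isoform sequences were read from the GENCODE vM21 transcripts.

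Counts were summed by gene or kept by transcript, rounded, normalized by TMM and tested with edgeR 4.0.16 (R 4.3.3) where TPM was at least 1 in at least 3 libraries, with Benjamini-Hochberg adjustment over all features tested; usage was tested with edgeR's diffSpliceDGE. DESeq2 1.42.0 and limma 3.58.1 on log2(TPM + 1) or log2(TPM + 0.1), RLE factors, no scaling, no filter, omission of each library and a replicate block were alternatives. Scaling to *Ddx4*, *Dazl* and *Mael*, and lengths as annotated, were added after the data were seen. Depth sets the precision: 3 counts are 0.146 to 0.240 CPM by library size alone, without TMM.

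The 3 genes, the lists and the markers were chosen with earlier results of these data known. Named genes are the 3 and their transcripts, the called, highest and lowest genes of the lists of decay partners and domain relatives, and the 5 genes nearest to each of the 3 in profile; *Cnot7*, *Dazl*, *Mael*, *Ddx4*, *Gata4*, *Des*, *Arih1* and *A1cf* are named outside that rule, with their values already seen.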

Additional observations from a re-analysis of the deposited data

Results flagged for a closer look

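In wild-type replicate 1, Rbm46-202 had 9.04 estimated counts and 0.707% of the *Rbm46* TPM, while the other 3 wild-type libraries were at 0, so that this library was marked as far from the others in both values, which come from the same reads. With the other 3 at 0, any value above 0 would have been marked, so the mark says nothing about its size. These were the 2 marked of 15 sets of 4 wild-type values. Wild-type replicate 1 was also the shallowest wild-type library and the highest for *Rbm46*, and their part in this value was not tested.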

How the results depend on the processing

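Of 200 fold changes recomputed under the alternatives, for 14 genes, transcripts and usages, 148 kept their direction and side of the threshold, 23 lost a call, 11 gained one and 18 turned in direction. For *Meioc* and *Ythdc2*, the direction held in all settings, but the call was lost with the replicate block (0.68 and 0.60, adjusted p = 0.0997 and 0.119 by edgeR), with scaling to germ cell markers (0.26 and 0.22), on log2(TPM + 0.1) (0.49 and 0.44), and for *Ythdc2* on log2(TPM + 1) (0.43). Omitting a library gave 0.63 to 0.88 and 0.61 to 0.86. Deviations of same-numbered libraries from their group means correlated at -0.012, -0.0892 and -0.168. Pairs with unlike numbers were not compared, so these values do not decide whether replicate numbers pair the libraries. *Rbm46* turned to -0.47 with scaling to markers, -0.25 on both TPM scales, -0.050 without scaling, and ranged from -0.11 without wild-type replicate 1 to 0.087 over omissions, with -0.0066 without null replicate 2. The median of all genes moved to -0.50, -0.25 and -0.23 under marker, log2(TPM + 0.1) and log2(TPM + 1) scaling.

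Genes called numbered 2331 by DESeq2 and 109 with the replicate block, and 129 to 2177 over omissions. Transcripts called numbered 2581 by DESeq2, 0 with the replicate block, 61 and 49 on log2(TPM + 0.1) and log2(TPM + 1), 1 without the filter, and 1 to 440 over omissions. Transcripts called for usage numbered 7 with limma's diffSplice and 24 to 65 over omissions. Among relatives, 3 were called by DESeq2, 2 on log2(TPM + 1), 2 without scaling, 0 with the replicate block and 0 to 3 over omissions; 1 partner was called on log2(TPM + 1). *Cnot1* turned to -0.34 with markers and -0.093 on both TPM scales, and *Ythdf2* to -0.18, -0.088 and -0.087 there. Rbm46-201 turned to -0.17 on both TPM scales and -0.052 without wild-type replicate 1 (up to 0.14 over omissions), and Rbm46-203 to 0.023 with the replicate block, 0.037 without null replicate 3 and 0.031 without wild-type replicate 4. The *Ythdc2* to *Meioc* ratio difference turned to 0.062 without null replicate 2, from -0.16 without null replicate 3. Where a cause is not in the construction of an alternative, the cause was not tested.

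Calls by transcript and by list rest on 4 and 3 libraries and on the authors' division of reads. Values per exon, and the spike-in RNAs, were not used here.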
